A study of Mus musculus with 6 samples.

Results

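The genes described here are 10 effectors of the Notch pathway, namely the repressor genes *Hes1*, *Hes5*, *Hes6*, *Hey1*, *Hey2* and *Heyl*, the feedback regulator *Nrarp*, and the Mastermind coactivator genes *Maml1*, *Maml2* and *Maml3*. They were taken by gene symbol from the 14647 genes of the expression table, and all 10 were present and passed the filter of a mean of at least 0.5 RPKM, which 13547 genes passed. The set was chosen from results of the same comparison, in which *Hes1* was higher and *Notch3* and the *Maml* genes lower in *Pax9*-null embryos. The differences between genotypes in these 10 genes and in *Notch3* are therefore given as a description, without *P* values. Where one of them is said to be called in a fit across all genes, this too describes values that the choice had used and is no evidence of a difference.

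Notch receptors are cleaved when a ligand on a neighbouring cell binds them, and the released intracellular domain enters the nucleus. There it joins the DNA-binding protein Rbpj and a Mastermind protein, which brings in histone acetyltransferases and turns on target genes. Many of these targets are *Hes* and *Hey* genes, which encode basic helix-loop-helix repressors that hold back differentiation of progenitors and pattern arteries, the heart and the nervous system, while Nrarp limits the signal by acting on the same complex.

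RNA-seq was performed on the pharyngeal region of embryos at embryonic day 9.5, reaching from the second arch down to where the heart begins. There were 3 *Pax9*-null embryos, which lack *Pax9* in every tissue rather than in the endoderm alone, and 3 wild-type embryos, of either sex and with 1 library per embryo. The study kept its mice on a C57Bl/6J background, and no treatment was given. Values are log2 RPKM, the log2 of reads scaled to the length of the gene and to the size of the library. Reads behind the values, recovered as whole numbers for 14644 of the 14647 genes, summed to between 11703727 and 12735790 per library. *Pax9* itself had 43, 37 and 39 reads in the *Pax9*-null libraries and 99, 102 and 123 in the wild-type libraries, so that 40.1% of the wild-type level remained, and which part of the gene these reads cover is not shown by the table.

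The libraries differed in their content of cell types, which was measured with marker lists. The cardiomyocyte markers (9 of 9 listed genes in the table, most abundant *Myl7*) summed to 1607, 1334 and 1218 RPKM in the *Pax9*-null libraries and to 1349, 1449 and 77.3 RPKM in the wild-type libraries. Wild-type replicate 3 thus stood apart, and 1 of the 9 cardiomyocyte markers, *Nppa*, reached 0 reads in it. The same library was low in the smooth muscle markers (3 of 4 listed genes in the table, most abundant *Acta2*), with 50.5 RPKM against a range of 217 to 289 RPKM in the other 5 libraries. It had the highest sum of the neural progenitor markers (9 of 9, most abundant *Sox2*), which was 122, 102 and 113 RPKM in *Pax9*-null and 74.0, 111 and 149 RPKM in wild-type libraries. The neuron markers (10 of 10, most abundant *Tubb3*) summed to 99.0, 71.0 and 82.1 RPKM in *Pax9*-null and to 102, 110 and 192 RPKM in wild-type libraries, with no overlap. Wild-type replicate 1 was lowest in neural progenitor markers and highest in endothelial markers (9 of 9, most abundant *Tek*), which summed to 54.9, 68.3 and 50.4 RPKM in *Pax9*-null and to 105, 67.0 and 56.2 RPKM in wild-type libraries. Erythroid markers (6 of 6, most abundant *Hbb-y*) were higher in all 3 *Pax9*-null libraries, at 4744, 2567 and 4312 RPKM against 2329, 2417 and 2373 RPKM.
Markers of the pharyngeal region, which the labels give as the source, were present in every library. The pharyngeal endoderm markers (9 of 10, most abundant *Krt18*) summed to 170, 223 and 182 RPKM in *Pax9*-null and 193, 195 and 139 RPKM in wild-type libraries. Of the 8 tested, *Sox17* was called higher and *Tbx1* and *Pax9* lower. The neural crest mesenchyme markers (8 of 8, most abundant *Twist1*) summed to 92.4, 97.6 and 92.7 RPKM in *Pax9*-null libraries and to at most 89.9 RPKM in wild-type libraries. The higher sum rests on *Twist1*, since 5 of these 8 markers had log2 differences below 0 (median −0.18), with *Twist1* called higher and *Sox10* lower. The part of these differences in content in any result below was not tested unless a value is given. In whole tissue, fewer cells of a type and less RNA per cell cannot be told apart.

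**Figure D1:**
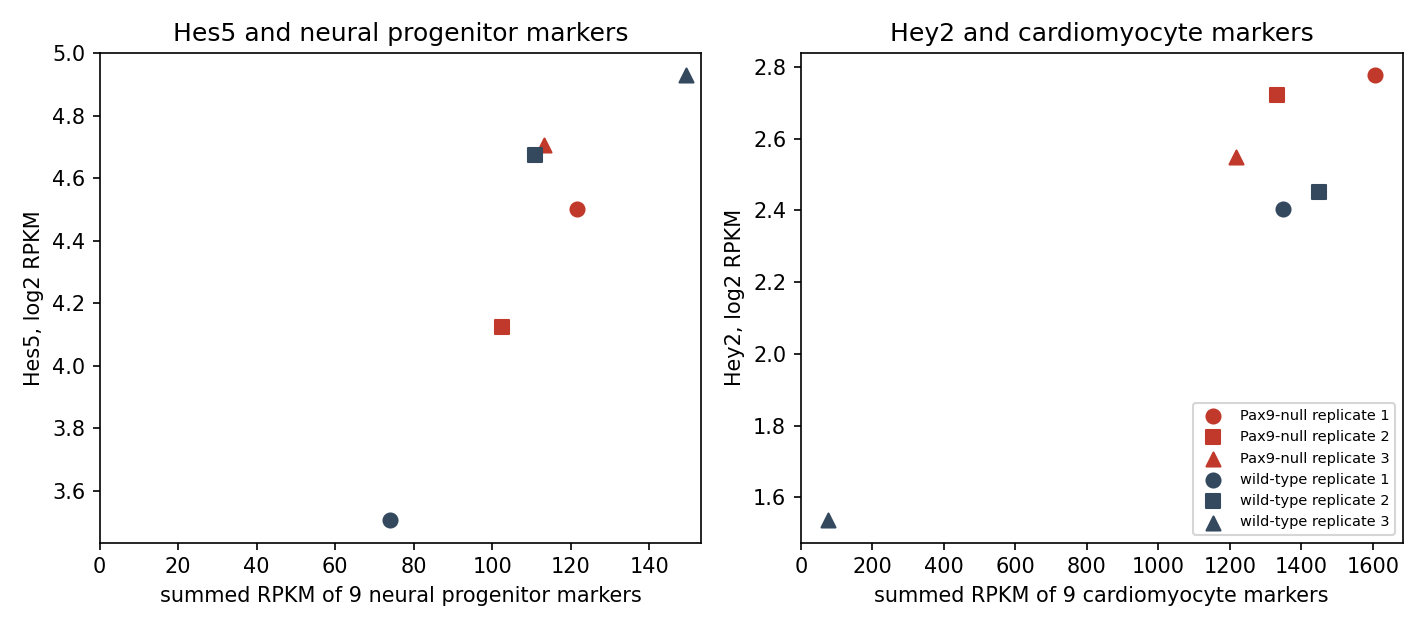
Log2 RPKM of *Hes5* against the summed RPKM of 9 neural progenitor markers (left), and of *Hey2* against that of 9 cardiomyocyte markers (right). Each point is 1 of the 6 libraries, coloured by genotype. Wild-type replicate 3 lies at 77.3 RPKM for cardiomyocyte markers, where the other 5 libraries lie at 1218 to 1607 RPKM.

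The promoters of *Hes5* and *Hey2* are shown because each holds the core sequence bound by Rbpj, TGGGAA, at more than 1 place, and because the level of both genes turned on single wild-type libraries. RefSeq promoter windows of 300 bases (build GRCm38.p6, 250 bases before to 50 after the start site) were matched for 7 of the 10 genes, in 9 windows. The stretches below are printed 5′ to 3′ on the strand of the gene and end 10 bases into the transcript, and capitals mark TGGGAA or its reverse complement TTCCCA. The *Hes5* stretch is chr4:154960673-154960932 on the plus strand and the *Hey2* stretch is chr10:30842774-30843033 on the minus strand.
Hes5: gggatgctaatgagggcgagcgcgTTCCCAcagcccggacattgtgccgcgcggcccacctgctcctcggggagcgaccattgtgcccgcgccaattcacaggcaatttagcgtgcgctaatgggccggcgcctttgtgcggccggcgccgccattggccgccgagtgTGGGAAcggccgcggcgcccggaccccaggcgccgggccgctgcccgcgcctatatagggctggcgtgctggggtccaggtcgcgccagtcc
Hey2: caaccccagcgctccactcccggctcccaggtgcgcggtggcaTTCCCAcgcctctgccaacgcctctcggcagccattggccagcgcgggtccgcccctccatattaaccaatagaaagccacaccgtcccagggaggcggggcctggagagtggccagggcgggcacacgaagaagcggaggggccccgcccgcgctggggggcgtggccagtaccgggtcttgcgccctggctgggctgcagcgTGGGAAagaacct
In *Hes5* the matches began at positions −226 and −82 from the start site, one on each strand. In *Hey2* they began at −207 and −3, also one on each strand. Over both strands TGGGAA was in 4 of the 9 member windows, the others being 1 window each of *Maml2* and *Maml3*, and in 25.6% of all 32851 windows. More than 1 match, as in *Hes5* and *Hey2*, was found in 3.79% of all windows. The N-box CACNAG and the E-box CANNTG, which are bound by Hes and Hey proteins, were in 3 and 8 of the 9 member windows and in 42.5% and 72.3% of all windows. A match is a description of the sequence and does not show binding.

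Between genes, levels are compared per length as log2 RPKM. In wild-type embryos the order of the mean levels was *Hes1* (4.66), *Hes5* (4.37), *Hey1* (4.15), *Hes6* (3.90), *Maml1* (2.93), *Hey2* (2.13), *Maml3* (1.18), *Heyl* (1.15), *Maml2* (0.63) and *Nrarp* (−0.09). The ranges of neighbours in this order overlapped except between *Hes6* and *Maml1*, *Maml1* and *Hey2*, and *Hey2* and *Maml3*, which were 0.96, 0.80 and 0.95 apart. The 4 most abundant repressor genes thus formed 1 group whose neighbours were not separated, above all 3 coactivator genes. In *Pax9*-null embryos *Hes1* stood clear of *Hes5* by 0.70 and *Hey1* stood clear of *Hes6* by 0.77, with no overlap in either case. *Hey2* was above *Maml1* in 3 of 3 *Pax9*-null libraries by a mean of 0.29, although the ranges of these genes overlapped, whereas *Maml1* was above *Hey2* in 3 of 3 wild-type libraries.

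**Figure D2:**
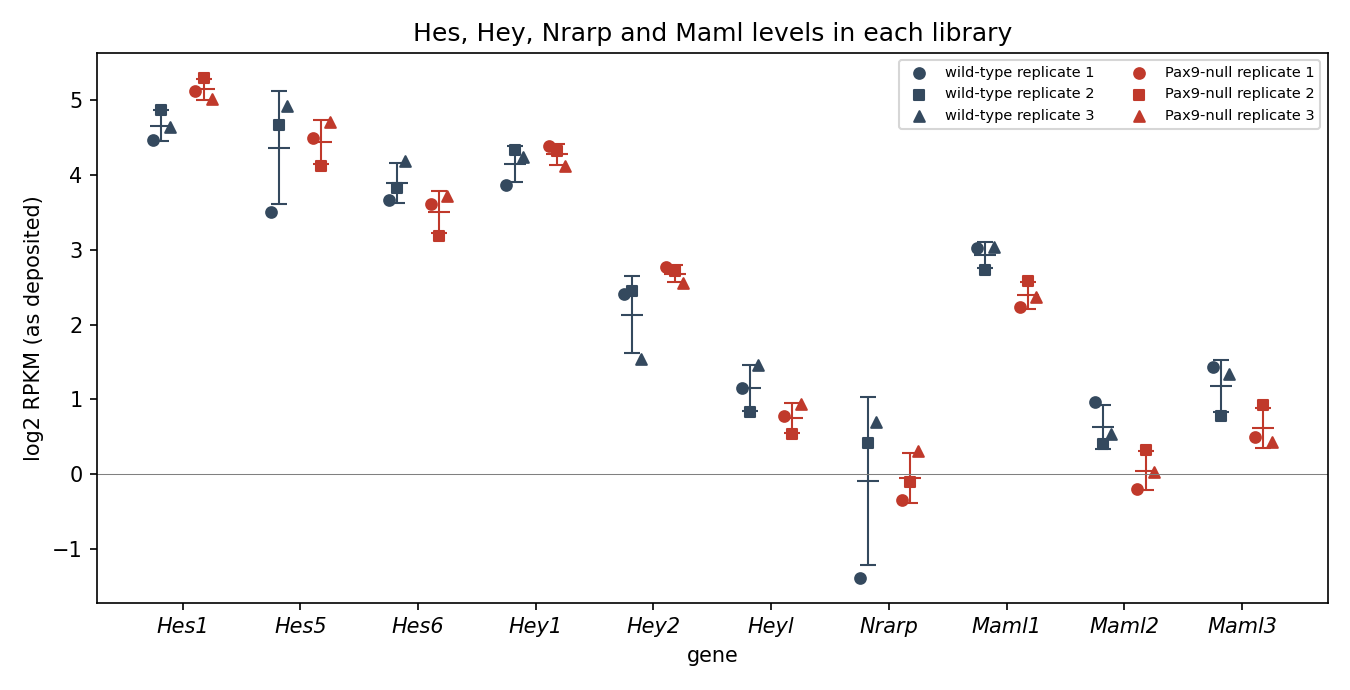
Log2 RPKM of the 10 genes in each library, with *Pax9*-null and wild-type libraries as points and the mean of each genotype (n = 3) as a short line with a bar of 1 SD. *Hes1* and *Hey2* lie higher, and *Maml1* and *Maml2* lower, in all 3 *Pax9*-null libraries than in any wild-type library, and the wild-type points of *Nrarp* and *Hes5* are spread most widely.

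In the limma test across the 13547 genes, 26.7% (3611 genes) passed the threshold, an adjusted *P* of 0.1 or less. Higher calls in *Pax9*-null embryos made up 14.7% of the tested genes (1990) and lower calls 12.0% (1621). In 41.9% of the genes the genotypes did not overlap. Of the 10 effectors 2 were called, *Hes1* as higher and *Maml1* as lower, and 4 did not overlap between genotypes. Because the set was chosen on this comparison, nothing is read from these counts. The log2 differences, *Pax9*-null minus wild-type, were above 0 for 5 genes and below 0 for 5, with a median of −0.18 beside −0.00 over all tested genes.

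*Hes1* encodes the repressor that is the best known direct target of Notch and keeps progenitors of many tissues undifferentiated. It lies on the plus strand at chr16:30064384-30067796 (ENSMUSG00000022528, GRCm38). Its log2 RPKM was 5.12, 5.30 and 5.02 in the *Pax9*-null libraries and 4.47, 4.88 and 4.64 in the wild-type libraries, from 572 to 924 reads. Every *Pax9*-null library was above every wild-type library. The means were 5.15 ± 0.14 (SD, n = 3) and 4.66 ± 0.20 (SD, n = 3), a log2 difference of 0.48 (standard error 0.12) or 1.40-fold. Leaving out wild-type replicate 3 or 1, which stood apart in markers, gave 0.47 and 0.39. With *Pax9*-null replicate 1 or 3 left out the difference was 0.50 and 0.55, and *Hes1* was not called in either fit.

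*Hes5*, another direct Notch target and a mark of neural progenitors, lies on the plus strand at chr4:154960923-154962371 (ENSMUSG00000048001). The level of *Hes5* in log2 RPKM was 4.50, 4.12 and 4.71 in *Pax9*-null and 3.51, 4.67 and 4.93 in wild-type libraries, from 196 to 522 reads. Wild-type replicate 1 was the lowest of the 6 and wild-type replicate 3 the highest, which is also the order of the neural progenitor markers at these ends (74.0 and 149 RPKM). The means were 4.44 ± 0.30 and 4.37 ± 0.76 (SD, n = 3 each), with a log2 difference of 0.07 (standard error 0.35). The sign turned to −0.36 when wild-type replicate 1 was left out and to −0.06 when *Pax9*-null replicate 3 was. The difference was 0.35 when wild-type replicate 3 was left out. A smaller SD in wild-type embryos than that of *Hes5* was found in 96.5% of the tested genes. Of its 1363 exon bases, 433 are shared with the antisense gene *Gm20421*, and the default settings stated for featureCounts do not use strand, so that reads from either strand cannot be told apart.

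*Hes6* differs from the others in promoting neuronal differentiation and opposing Hes1. It lies on the minus strand at chr1:91411483-91414038 (ENSMUSG00000067071). On the log2 RPKM scale it was 3.61, 3.19 and 3.72 in *Pax9*-null and 3.67, 3.83 and 4.19 in wild-type libraries. The genotypes overlapped at a single point, since 1 *Pax9*-null library was above the lowest wild-type library. The log2 difference was −0.39 (standard error 0.18), or 76.2% of the wild-type level, and ranged from −0.51 to −0.23 with 1 library left out. It was −0.23 when *Pax9*-null replicate 2, the lowest, was left out and −0.25 when wild-type replicate 3, highest in *Hes6* and in the neuron markers, was.

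The levels of the *Hes* genes, summed as RPKM, were 69.7, 66.0 and 71.7 in *Pax9*-null and 46.2, 69.2 and 73.7 in wild-type libraries. These sums overlapped, with wild-type replicate 1 alone at the low end. *Hes1* made up between 45.3% and 59.8% of the sum in *Pax9*-null and 47.9%, 42.5% and 33.9% in wild-type libraries, and these shares overlapped as well.

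*Hey1* encodes a repressor of arterial endothelium, endocardium and other Notch-responsive tissues and lies on the minus strand at chr3:8663359-8667256 (ENSMUSG00000040289). Its log2 RPKM was 4.39, 4.33 and 4.12 in *Pax9*-null and 3.87, 4.34 and 4.24 in wild-type libraries, from 607 to 814 reads. The genotypes overlapped, with means of 4.28 ± 0.14 and 4.15 ± 0.24 (SD, n = 3 each). The log2 difference of 0.13 (standard error 0.14) was −0.01 without wild-type replicate 1, the lowest library.

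*Hey2*, which represses atrial genes in the ventricle and acts with *Hey1* in arteries, lies on the minus strand at chr10:30832359-30842801 (ENSMUSG00000019789). For *Hey2* the log2 RPKM was 2.78, 2.72 and 2.55 in *Pax9*-null and 2.40, 2.45 and 1.54 in wild-type libraries, from 167 to 364 reads. All 3 *Pax9*-null libraries were above all wild-type libraries. The means were 2.68 ± 0.12 and 2.13 ± 0.52 (SD, n = 3 each), a log2 difference of 0.55 (standard error 0.24) or 1.47-fold. Most of the spread came from wild-type replicate 3, the library with 77.3 RPKM of cardiomyocyte markers. Without it the log2 difference was 0.25.

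*Heyl*, expressed in vascular smooth muscle and in neural crest derivatives, lies on the plus strand at chr4:123233556-123249875 (ENSMUSG00000032744). Its log2 RPKM was 0.78, 0.54 and 0.93 in *Pax9*-null and 1.16, 0.83 and 1.46 in wild-type libraries. The genotypes overlapped, and the log2 difference was −0.40 (standard error 0.21), or −0.24 without wild-type replicate 3. The sums of the *Hey* genes were 29.5, 28.1 and 25.1 RPKM in *Pax9*-null and 22.2, 27.4 and 24.6 RPKM in wild-type libraries and overlapped between genotypes. *Hey1* made up 70.5% ± 1.19 of the sum in *Pax9*-null and 72.2% ± 5.58 in wild-type embryos (SD, n = 3 each).

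*Nrarp*, whose product shortens the life of the Notch intracellular domain, lies on the plus strand at chr2:25180758-25183339 (ENSMUSG00000078202). Its mean level was the lowest of the 10 genes in either genotype, with 12 to 52 reads per library, but it was above *Maml2* in some libraries of each genotype. In log2 RPKM it was −0.35, −0.11 and 0.31 in *Pax9*-null and −1.39, 0.41 and 0.69 in wild-type libraries. The *Pax9*-null values lay inside the wild-type range. The log2 difference of 0.04 (standard error 0.52) became −0.61 when wild-type replicate 1 was left out, 0.44 when wild-type replicate 3 was, and −0.14 when *Pax9*-null replicate 3 was. Its wild-type SD of 1.13 was larger than that of 98.5% of the tested genes. Of its 2582 exon bases, 2051 are shared with the antisense gene *Gm38287*, which makes its counts uncertain.

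The Mastermind proteins are not targets but parts of the activating complex, where they bridge the Notch intracellular domain and Rbpj. *Maml1* lies on the minus strand at chr11:50255634-50292311 (ENSMUSG00000050567). Its log2 RPKM was 2.23, 2.58 and 2.36 in *Pax9*-null and 3.03, 2.73 and 3.04 in wild-type libraries, from 300 to 572 reads. Each *Pax9*-null library was below each wild-type library. The means were 2.39 ± 0.18 and 2.93 ± 0.18 (SD, n = 3 each), with a log2 difference of −0.54 (standard error 0.14), or 68.8% of the wild-type level. Leaving out *Pax9*-null replicate 1 or 3 gave −0.46 and −0.52, and leaving out wild-type replicate 1 or 3 gave −0.49 in either case. *Maml1* was called in none of these 4 fits. An antisense gene, *Gm26542*, shares 135 of its 5528 exon bases.

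*Maml2* lies on the plus strand at chr9:13297957-13709388 (ENSMUSG00000031925), and its log2 RPKM was −0.20, 0.32 and 0.02 in *Pax9*-null and 0.97, 0.40 and 0.54 in wild-type libraries. The libraries did not overlap, but the highest *Pax9*-null and the lowest wild-type library were close. The log2 difference was −0.59 (standard error 0.23), from 66 to 163 reads. *Maml3* lies on the minus strand at chr3:51685907-52105076 (ENSMUSG00000061143), and its log2 RPKM was 0.50, 0.93 and 0.43 in *Pax9*-null and 1.43, 0.77 and 1.33 in wild-type libraries. *Pax9*-null replicate 2 was above wild-type replicate 2, so that the genotypes overlapped, and the log2 difference was −0.56 (standard error 0.23). In all 6 fits that left out 1 library the differences stayed below 0, between −0.72 and −0.42 for *Maml2* and between −0.76 and −0.44 for *Maml3*.

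The *Maml* genes summed to 6.98, 9.14 and 7.50 RPKM in *Pax9*-null and to 12.8, 9.66 and 12.2 RPKM in wild-type libraries. The sums did not overlap, with means of 7.87 ± 1.13 and 11.5 ± 1.67 RPKM (SD, n = 3 each). *Maml1* held a like share of the sum in both genotypes, 67.1% ± 1.49 in *Pax9*-null and 66.6% ± 2.54 in wild-type embryos (SD, n = 3 each). Within a library, the log2 level of *Hes1* above that of *Maml1* was 2.89, 2.72 and 2.66 in *Pax9*-null and 1.44, 2.15 and 1.60 in wild-type libraries. This distance did not overlap between genotypes. That follows from the opposite differences of *Hes1* and *Maml1*, on which the set was chosen, and is no further result.

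**Figure D3:**
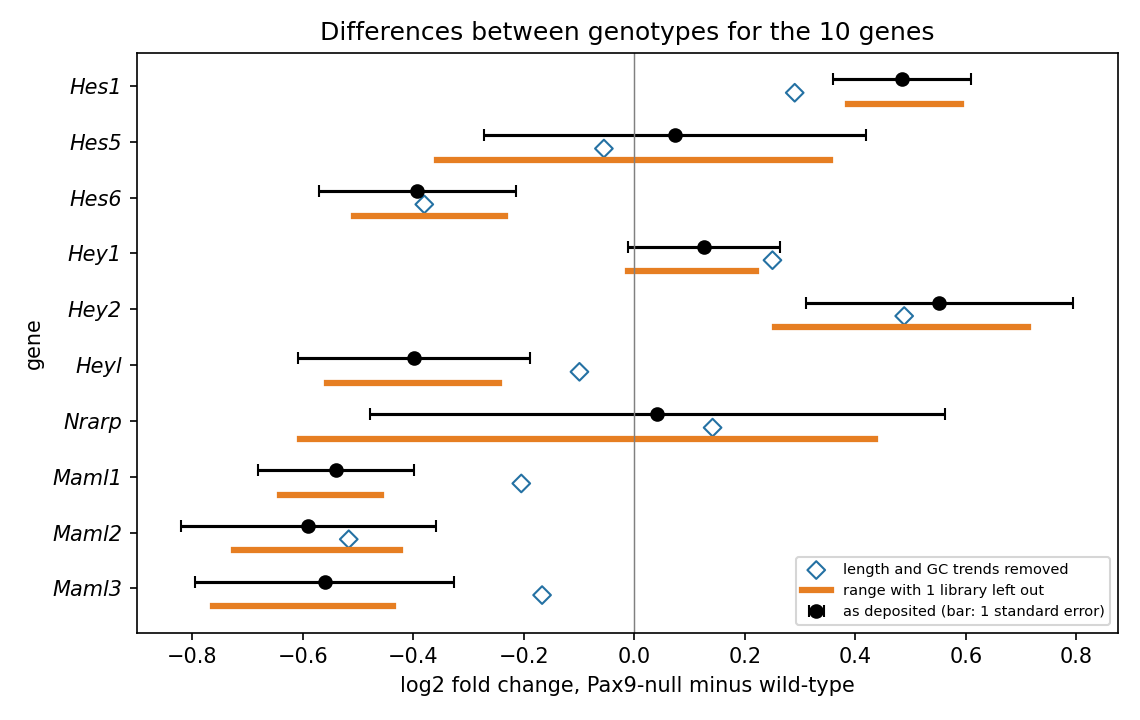
Log2 difference (*Pax9*-null minus wild-type) of each of the 10 genes as a black point with a bar of 1 standard error, the range with 1 library left out as an orange line, and the value with the trends on gene length and GC content removed as an open diamond. Removal of the trends brought *Maml1* from −0.54 to −0.20 and *Maml3* from −0.56 to −0.17 but left *Hey2* at 0.49 and *Maml2* at −0.52.

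Differences between the genotypes followed the length of the genes across the whole table. In the decile of shortest genes (56 to 1370 bp) the median log2 difference was 0.55, and higher calls took 46.1% of the genes and lower calls 1.78%. Among the longest genes (9682 bp or more) the median was −0.20, and the corresponding shares were 5.47% and 20.2%. *Hes5* (1363 bp) was in the first of the deciles, *Hes1* (2037 bp) and *Hes6* (1808 bp) in the second, and *Maml3* (10486 bp) in the last. *Maml1* (5528 bp) and *Maml2* (6598 bp) lay above the median length of 4170 bp. The differences also followed GC content, with a median of 0.30 in the decile of lowest GC and −0.24 in that of highest GC. *Hes5* (62.1% GC) and *Hes6* (61.7%) were in the highest GC decile, where the median has the opposite sign to that of their length deciles, and *Maml1* (55.7%) was in the one below it.
When each library's trends on length and GC content were removed, the log2 differences were 0.29 for *Hes1*, −0.05 for *Hes5*, −0.38 for *Hes6*, 0.25 for *Hey1*, 0.49 for *Hey2*, −0.10 for *Heyl*, 0.14 for *Nrarp*, −0.20 for *Maml1*, −0.52 for *Maml2* and −0.17 for *Maml3*. Over the whole table this left 503 calls, none of them in the 10 genes. Whether the trends arose in the embryos or in the libraries was not tested.

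**Figure D4:**
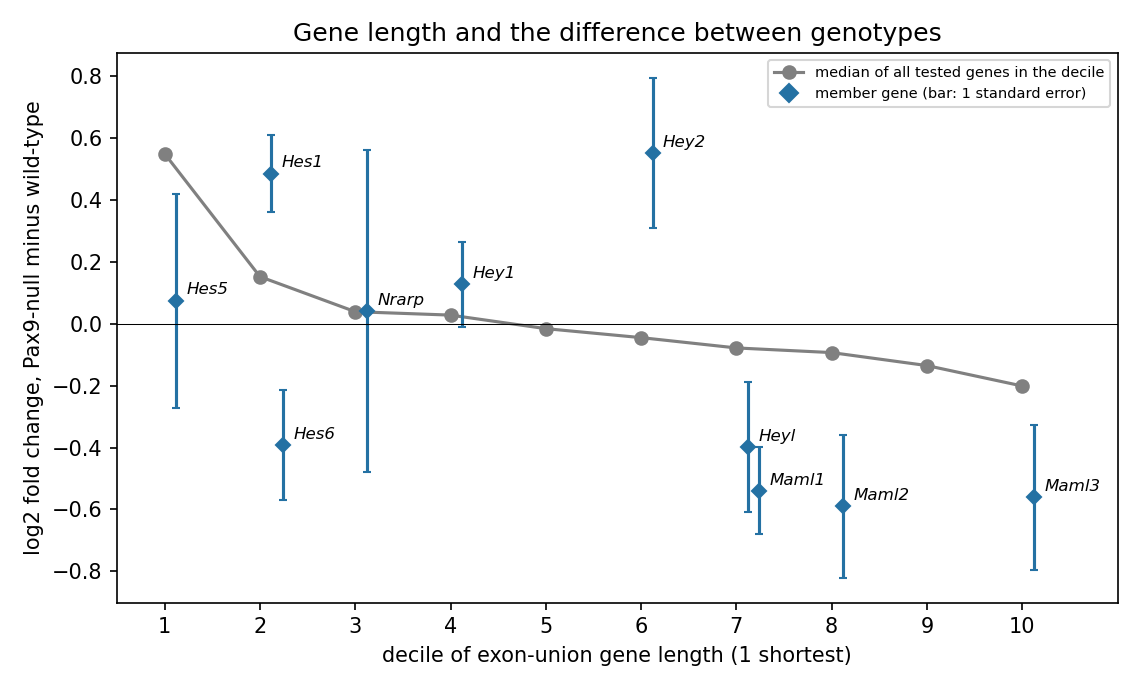
Median log2 difference (*Pax9*-null minus wild-type) of the tested genes in each decile of gene length, as grey points, with the 10 effectors at their own decile as diamonds with bars of 1 standard error. The medians run from 0.55 in the shortest decile to −0.20 in the longest, and *Nrarp* (0.04) lies nearest to the median of its decile and *Hey2* (0.55) farthest from it.

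The remainder of the pathway was described with 57 other genes listed by role, of which 56 were in the table and 54 were tested. Of these, 13 (24.1%) were called, all 13 lower, beside the 12.0% of tested genes called lower in the whole table. The median log2 difference was −0.26, with 7 genes above 0 and 47 below. Without *Notch3*, which was among the results that led to the set, 12 of 53 were called. After removal of both trends the median was −0.07 and limma called 0 of them, beside 3.72% of all tested genes. In that fit 8 of them had an unadjusted *P* below 0.05 by limma. Leaving out *Pax9*-null replicate 1, or replicate 3 of that genotype, also gave a count of 0. In those fits 2.22% and 1.29% of all tested genes were called. Leaving out wild-type replicate 1 or 3 gave 5 (9.26%) and 4 (7.41%), beside 13.3% and 15.8% of all tested genes.

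All 3 receptor genes besides *Notch3* were called lower, with a median of −0.76 that became −0.18 once the trends were removed. *Notch1*, the receptor of endothelium and neural progenitors among others, was 0.80, 1.24 and 1.47 in *Pax9*-null and 1.86, 1.75 and 2.33 in wild-type libraries on the log2 RPKM scale. The groups did not overlap, and it fell by 0.81 (standard error 0.23, adjusted *P* = 0.0587 by limma). *Notch2* fell by 0.76 (standard error 0.21, adjusted *P* = 0.0584 by limma) and *Notch4*, largely an endothelial receptor, by 0.55 (standard error 0.19, adjusted *P* = 0.0911 by limma). Once the trends were removed, the log2 differences were −0.18 for *Notch1*, −0.30 for *Notch2* and −0.01 for *Notch4*, none of them called. *Notch3*, a receptor of vascular smooth muscle and neural crest derivatives, was 1.72, 2.10 and 2.18 in *Pax9*-null and 2.76, 2.51 and 3.06 in wild-type libraries, without overlap and with a log2 difference of −0.77 (standard error 0.18), given as a description. Leaving out 1 library in turn, *Notch1* was called in 3 of 6 fits, *Notch2* in 2 and *Notch4* in none. The endothelial markers overlapped between genotypes in their sum, but 8 of 9 had log2 differences below 0, with a median of −0.46, 2 called lower and 0 higher, and the part of this in the receptor values was not tested.

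None of the 5 ligand genes was called (median −0.42, 2 at an unadjusted *P* below 0.05, and 0 called by voom). *Jag2*, with 58 to 111 reads, had the largest difference among them, −0.47 (standard error 0.20, adjusted *P* = 0.142 by limma). With the trends removed it turned to 0.01, and the median of the ligands was −0.12. Over the alternative fits *Jag2*, *Dll3* and *Dll4* were each called in 1. Of 5 fringe and other sugar transferase genes, which tune the choice of ligand, only *Rfng* was called. With 57 to 118 reads, it fell by 0.57 (standard error 0.16, adjusted *P* = 0.0594 by limma). None of the 4 ubiquitin ligase genes that act on ligands was called (median −0.28, 0 at an unadjusted *P* below 0.05, and 0 by voom), with the largest difference in *Mib2* (−0.32, standard error 0.19, adjusted *P* = 0.264 by limma). Removal of the trends turned *Mib2* to 0.05 and the median of these ligase genes to 0.09, and it turned the median of the sugar transferase genes from −0.19 to 0.08 while *Rfng* was −0.38.

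Of 9 genes for proteases that mature or cleave the receptors, 3 were called lower. *Ncstn*, a subunit of γ-secretase, was 3.21, 3.50 and 3.45 in *Pax9*-null and 4.14, 3.76 and 3.85 in wild-type libraries on the log2 RPKM scale. It fell by 0.53 (standard error 0.13, adjusted *P* = 0.0468 by limma) and was called in 4 of the 6 fits with 1 library left out. *Furin*, which cuts the receptor on its way to the surface, fell by 0.75 (standard error 0.22, adjusted *P* = 0.0629 by limma). With the trends removed the log2 differences were −0.41 for *Ncstn* and −0.24 for *Furin*, neither of them called. Of 8 genes for receptor turnover none was called (median −0.25, 1 at an unadjusted *P* below 0.05, and 0 by voom), with the largest difference in *Dtx4* (−0.38, standard error 0.18, adjusted *P* = 0.175 by limma).

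Of the 6 genes for Rbpj and coactivators, the acetyltransferase genes *Crebbp* and *Kat2a* were called lower, at −0.66 (standard error 0.22, adjusted *P* = 0.0800 by limma) and −0.47 (standard error 0.13, adjusted *P* = 0.0571 by limma). *Rbpj* itself, the DNA-binding subunit of the complex, had a log2 difference of −0.25 (standard error 0.12, adjusted *P* = 0.177 by limma) and was not called. Of 13 corepressor genes, whose products silence Rbpj targets in the absence of Notch, 3 were called lower. Among them were *Spen* and *Sin3a*, with log2 differences of −0.69 and −0.36 and adjusted *P* values of 0.0952 and 0.0823 by limma. Removal of the trends left −0.25 for *Crebbp*, −0.16 for *Kat2a*, −0.05 for *Spen* and −0.31 for *Sin3a*, none of them called. The median of the corepressors was −0.09. Lower calls were therefore found both among genes that activate and among genes that repress Notch targets.

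**Figure D5:**
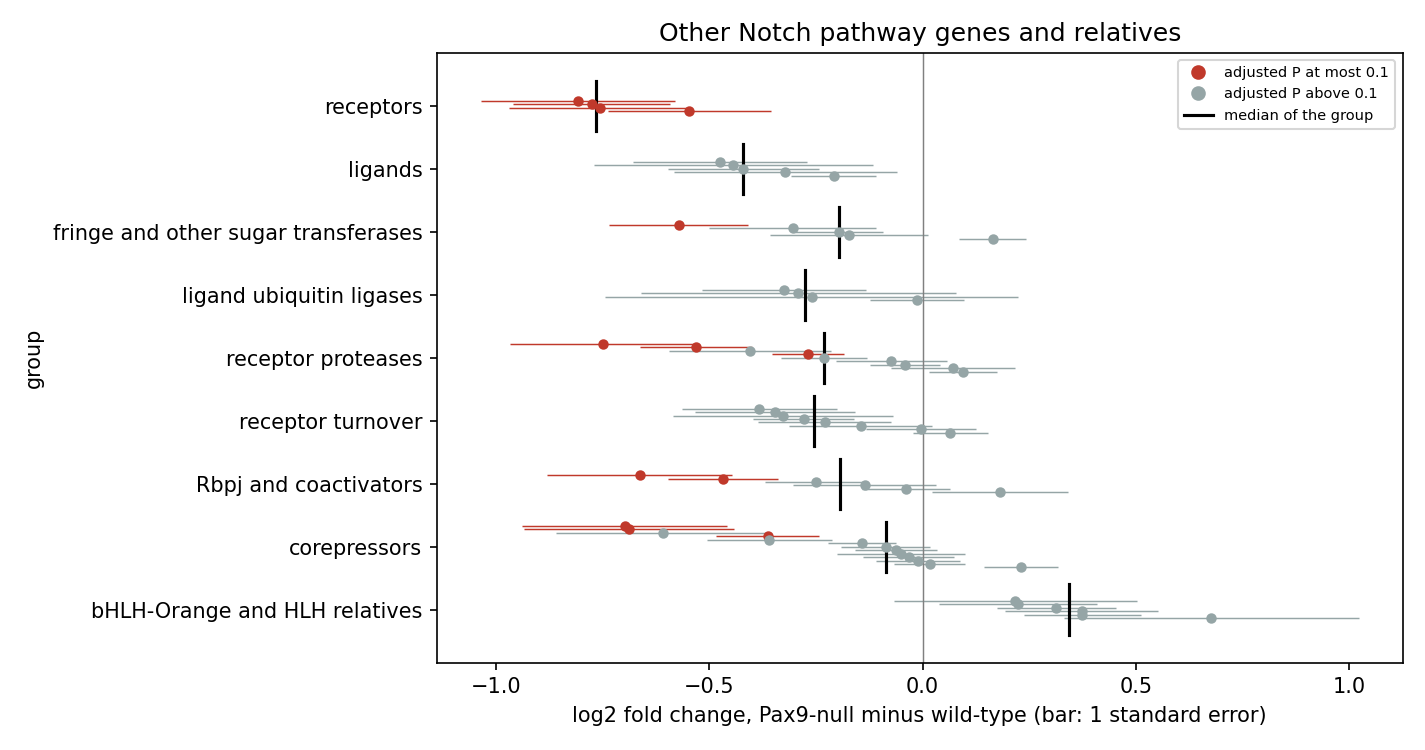
Log2 difference (*Pax9*-null minus wild-type) of the tested Notch pathway genes by role and of the relatives of the repressors, each point a gene with a bar of 1 standard error, called genes in red and group medians as black lines. The 3 receptor genes besides *Notch3* are called lower, and no gene of any group is called higher.

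The relatives of the Hes and Hey repressors, other genes for helix-loop-helix proteins without a set place in the pathway, gave 6 tested genes. All 6 had log2 differences above 0 (median 0.34), and the median was 0.38 and 0.23 with the libraries centred on their medians and after quantile normalization, but 0.16 with the trends on length and GC content removed. None was called by limma, with 1 at an unadjusted *P* below 0.05, and over 17 alternative fits *Id1* was called in 6, voom among them, and *Id2* in 1. The largest difference was in *Hes3* (0.68, standard error 0.34, adjusted *P* = 0.201 by limma), which had 10 to 31 reads per library. *Id1*, a dominant-negative partner of helix-loop-helix factors, was named like *Id2* after its values were seen and had log2 RPKM of 5.86 ± 0.13 in *Pax9*-null and 5.48 ± 0.26 in wild-type embryos (SD, n = 3 each). Its genotypes did not overlap, with a log2 difference of 0.37 (standard error 0.14) that was 0.07 with the trends removed.

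The pattern of *Hes1* over the 6 libraries was most like those of *Lipo3*, *Uchl5* and *Gm10031*, with Pearson's r of 0.992, 0.987 and 0.984 over the log2 values. The pattern of *Maml1* was most like those of *Igdcc3*, *Coro7* and *Sema6a*, with r of 0.998, 0.997 and 0.997. These are the highest of 13547 genes over only 6 libraries that share the genotype and the depth of each embryo, and they are given as a description. Correlations among the effectors themselves contain the difference between genotypes on which *Hes1* and the *Maml* genes were chosen, and they too are only a description. Here *Maml1* had r of 0.95 with *Maml3* and 0.94 with *Maml2*, which stood at ranks 451 and 637 of the genes most like it. *Hes1* had r of 0.71 with *Hey1* (rank 2872), 0.64 with *Hey2*, 0.28 with *Nrarp*, 0.24 with *Hes5*, −0.67 with *Hes6*, −0.85 with *Heyl*, −0.81 with *Maml1*, −0.78 with *Maml2* and −0.73 with *Maml3*.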

How the data were processed

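Pharyngeal tissue of 3 *Pax9*-null and 3 wild-type embryos was sequenced. The authors trimmed, sub-sampled and aligned reads to GRCm38 and counted them per gene, and the submitters' processing notes name Trimmomatic 0.32, STAR 2.5.1a and featureCounts 1.5.1. The deposited values are log2 RPKM made by the authors, with an effective library size and a prior count (mean 0.5 reads) that were worked out from the values. Whole reads were recovered for 82.7% of values, within 0.05 reads, at the exon length of GENCODE M21, including those of all 10 genes described, and for nearly all other genes after a search of lengths. The labels give pharyngeal arch as the source but name sorted TECs, Smart-seq2 and another sequencer in the extraction protocol, whereas the study's methods describe whole pharyngeal tissue and strand-specific TruSeq libraries, which were followed.

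Genes averaging 0.5 RPKM or more were tested with limma 3.58.1 in R 4.3.3 on the deposited log2 values. The test was two-sided, with a variance trend and Benjamini-Hochberg adjustment over all 13547 genes. Genes with an adjusted *P* of 0.1 or less were called. The test was also run on simulated data. That run does not show how far the length and GC trends or the differences in cell type content moved the calls in these libraries. *P* values set the difference between genotypes against the spread between embryos, 3 per genotype, with each gene's variance drawn toward the trend over all genes. That spread also holds the differences in cell type content between libraries. The members and lists were chosen with earlier results of these data known. Named were all 10 members, every called gene of each pathway group or otherwise the gene with the largest absolute difference, and the 3 genes most like *Hes1* and *Maml1*. Some called genes are counted in their group but not reported here by name. *Aph1c*, *Dtx1* and *Bhlhe41* did not pass the filter, and *Tle2*, *Hes2*, *Hes7*, *Helt*, *Mamld1*, *Nkx2-1* and *Myh11* were not analysed here. Alternatives were other pseudocounts, filters, scalings, models and thresholds, removal of length and GC trends (splines with 5 degrees of freedom), a replicate block, and each library left out.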

Additional observations from a re-analysis of the deposited data

How the results depend on the processing

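Of 17 other fits, those that moved a count of calls by more than 1.5 times or changed which effectors were called are given here, against 3611 genes of the whole table, 2 effectors and 13 other pathway genes. With each library left out in turn the counts ran from 175 to 3578, from 0 to 3 and from 0 to 11. Removal of the trends on length and GC content left 503, 0 and 0 (8 pathway genes at an unadjusted *P* below 0.05 by limma). With the threshold at an adjusted *P* of 0.05 the counts were 1335, 0 and 2. Voom weights on the recovered reads called 4 effectors, namely *Hes1* as higher and the 3 *Maml* genes as lower, directions that the choice of these genes had used, and 15 pathway genes, 14 lower and 1 higher, with 28.8% of all genes called. With a mean of at least 5 RPKM only 35 pathway genes were tested and 8 (22.9%) called, 7 lower and 1 higher, beside 34.5% of all genes. The cause of the other changes was not tested. Other pseudocounts, centring on library medians, quantile normalization and a test without a variance trend kept *Hes1* and *Maml1* called, and these scalings moved the median of all genes by at most 0.04. With 1 added to RPKM, *Hes1* and *Maml1* had log2 differences of 0.47 and −0.47. The same pseudocount brought *Maml2* to −0.33, *Maml3* to −0.37 and *Heyl* to −0.27, and it turned *Nrarp* to −0.04.

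The replicate numbers were not shown to pair the embryos, since the correlations of same-numbered deviations were −0.02, −0.17 and 0.26. With a replicate block the counts were 1377, 1 (*Hes1*) and 2, and with the block and the trends on length and GC content removed they were 227, 0 and 0.

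The *Nrarp* values rest on 12 to 52 reads per library, and counting error is largest there. The signs of *Hes5*, *Hey1* and *Nrarp* turned with single libraries.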
